A study of Mus musculus with 12 samples.

Results

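The sequence of transcription factors that takes a radial progenitor of the cerebral cortex to a glutamatergic projection neuron was followed through 6 kinds of cortical sample by 7 genes: Pax6, Neurog2, Insm1, Eomes, Neurod6, Tbr1 and Fezf2. Every probe set that the array's annotation assigns to 1 of these symbols was taken, which gave 8 of the 12422 probe sets on the array that are not controls, with 2 for Eomes and 1 for each of the others. The samples were pieces of mouse cortex at E16.5, counted in days of embryonic development, named medial, dorsal, ventral, rostral and occipital, and the whole hemisphere, with 2 arrays per group and 12 in all. No strain, genotype or treatment is given in the labels. The number of animals behind a sample is not given either, and the replicates came from independent dissections. The sample titles name a rostral piece where the description of the dissection names a lateral one, and the titles were followed.

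In the embryonic pallium, the dorsal part of the telencephalon, radial glia divide at the ventricle and hold the paired-box factor Pax6, which helps to switch on the proneural gene Neurog2. Neurog2 and the zinc finger factor Insm1 accompany the step to intermediate progenitors, which are marked by the T-box factor Eomes, also called Tbr2. Their postmitotic daughters turn on the bHLH factor Neurod6 and, in the early-born deep layers, the T-box factor Tbr1. Fezf2, a zinc finger factor, is active in progenitors and specifies the deep-layer neurons that project below the cortex. The subpallium at the base of the telencephalon uses other factors, among them the Dlx genes, and makes GABAergic neurons.

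The stretch of 250 bases before the start of the gene is shown for 2 pairs of relatives, the bHLH genes Neurog2 and Neurod6 and the T-box genes Eomes and Tbr1. Neurog2 and Eomes were highest in the medial piece, and Neurod6 and Tbr1 in the dorsal piece. None of them differed between those pieces at a limma adjusted p under 0.05. The sequences are RefSeq's, build GRCm38.p6, read 5′ to 3′ on the strand of the gene, and RefSeq promoter entries were matched for 6 of the 7 genes, with Insm1 unmatched. They lie at chr3:127632886-127633135 (plus strand) for Neurog2, chr6:55681264-55681513 (minus) for Neurod6, chr9:118477939-118478188 (plus) for Eomes and chr2:61804203-61804452 (plus) for Tbr1. Capitals mark the E-box, CANNTG, to which bHLH factors bind, and the TATA element TATATAAG, which was chosen after the sequences were seen; both were searched on both strands and do not overlap here.
Neurog2: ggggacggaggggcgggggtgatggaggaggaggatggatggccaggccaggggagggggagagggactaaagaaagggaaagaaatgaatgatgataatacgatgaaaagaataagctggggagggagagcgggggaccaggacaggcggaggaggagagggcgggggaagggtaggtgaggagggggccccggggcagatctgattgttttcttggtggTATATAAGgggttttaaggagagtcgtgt
Neurod6: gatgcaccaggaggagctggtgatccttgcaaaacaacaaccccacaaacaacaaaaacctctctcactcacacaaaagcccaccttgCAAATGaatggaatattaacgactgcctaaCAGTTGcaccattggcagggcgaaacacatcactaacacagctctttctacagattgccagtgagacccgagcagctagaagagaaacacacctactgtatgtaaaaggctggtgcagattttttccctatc
Eomes: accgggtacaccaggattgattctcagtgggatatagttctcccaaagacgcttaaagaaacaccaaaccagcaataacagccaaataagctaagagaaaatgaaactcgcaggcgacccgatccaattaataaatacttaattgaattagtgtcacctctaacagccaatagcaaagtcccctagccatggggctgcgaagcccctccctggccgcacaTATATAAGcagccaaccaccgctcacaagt
Tbr1: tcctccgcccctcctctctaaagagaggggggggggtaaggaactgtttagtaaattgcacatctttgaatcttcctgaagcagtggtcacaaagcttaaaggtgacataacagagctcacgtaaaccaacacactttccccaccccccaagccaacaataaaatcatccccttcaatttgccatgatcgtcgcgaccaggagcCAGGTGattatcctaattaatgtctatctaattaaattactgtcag
The TATA element stood 29 bases before the start of Neurog2 and 30 bases before that of Eomes, and in 0.935% of the 32851 promoter stretches of this length in the table. An E-box lay in 3 of the 7 stretches of the 6 genes, those of Neurod6 (CAAATG and CAGTTG) and Tbr1 (CAGGTG) and 1 of the 2 of Pax6 (CAAATG), and in 66.2% of all stretches. The form CAGATG, which Neurog and NeuroD factors bind, lay in 0 of these 7 and in 14.4% of all. These are matches of letters and say nothing about binding.

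The signal of each probe set was the average difference, for which each mismatch probe is subtracted from its perfect match and the results averaged. It is linear and can be negative. Before log2 was taken, values were raised to at least 695.2, called the floor, a noise level taken from the negative readings as the root of their mean square. All 8 probe sets passed the filter on dim signals, more than 2 times the floor (1390) on at least 2 arrays, as did 5825 probe sets in all. The arrays were alike in overall signal: between 39.1% and 41.6% of an array's probe sets lay above 2 times the floor. Replicates of a group correlated at 0.901 to 0.962 across the tested probe sets, and 9 of the 12 arrays were closer to an array of another group than to their own replicate. Each medial array was closest to the dorsal array of its number (0.965 and 0.946), rostral replicate 2 and occipital replicate 1 to each other (0.963), and occipital replicate 2 and hemisphere replicate 2 to each other (0.969). Neurod6 and Tbr1, which mark pallial neurons, read above 2 times the floor on all 12 arrays, the ventral ones included. The ratio of 5′ to 3′ beta-actin signal, a sign of RNA integrity, was 0.604 to 0.831 on replicate 1 and 0.804 to 0.887 on replicate 2 arrays, with the ventral ones at 0.665 and 0.856. With 2 arrays per group, precision is limited by their number.

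Pax6 (92271_at), the radial glia factor, read 3611.4 and 2665.2 in the medial piece, and between 1304.0 and 2032.7 on the other 10 arrays. The medial arrays stood above all others and the ventral arrays, at 1539.3 and 1304.0, were low, although hemisphere replicate 2 (1494.7) lay between them. Rostral (1751.9 to 1926.3), dorsal (1719.8 to 1846.4), occipital (1542.9 to 2032.7) and hemisphere (1494.7 to 1954.4) values overlapped.

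Neurog2 (97792_at), the proneural factor, read 7140.7 and 9903.6 in the medial piece and 155.3 and 482.6, both under the floor, in the ventral piece. The dorsal arrays read 3240.1 and 5016.2, the rostral ones 5601.4 and 2960.2, the occipital ones 3048.7 and 4526.1, and the hemisphere 1675.1 and 4575.2. The medial and the ventral piece thus stood apart from all other arrays, while the 4 groups between them overlapped.

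Insm1 (102085_at), which promotes the formation of intermediate progenitors, read 8803.9 and 13287.7 in the dorsal piece and 8455.6 and 12346.6 in the medial piece. Rostral values were 7755.9 and 9935.6, occipital values 6262.2 and 8384.5 and hemisphere values 4378.7 and 6438.8, against 786.3 and 1818.6 in the ventral piece. Every group overlapped the next in this order except the ventral one. The rank of the 5 pieces was the same in both replicates, dorsal, medial, rostral, occipital and ventral.

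Eomes was read by 2 probe sets. The probe set 93880_at gave 7361.3 and 9541.9 in the medial, 4460.2 and 5764.2 in the dorsal, 5121.6 and 3404.2 in the rostral, 2355.3 and 4076.3 in the occipital and 231.4 and 240.1 in the ventral piece, with 2511.8 and 2830.8 in the hemisphere. The other, 103532_at, gave 2249.6 and 2824.8 in the medial, 1306.4 and 1678.0 in the dorsal, 1918.6 and 1095.7 in the rostral, 1398.9 and 1215.8 in the occipital and -25.5 and 128.8 in the ventral piece, with 835.0 and 1143.9 in the hemisphere. On both probe sets the medial arrays were above and the ventral arrays below all others, and both ventral arrays were under the floor. Dorsal, rostral and occipital values overlapped on 103532_at. On 93880_at the rostral pair overlapped the dorsal and the occipital pair, while both dorsal arrays lay above both occipital ones.

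Neurod6 (98857_at), a factor of postmitotic projection neurons, read 15079.8 and 14861.6 in the dorsal piece, above every other array. The medial arrays read 13400.2 and 11717.3, the rostral 10736.6 and 9841.7, the occipital 12729.7 and 7368.7, the hemisphere 9748.7 and 8278.7 and the ventral 4384.2 and 5438.6. Only the dorsal and the ventral piece lay clear of all other arrays here, since 1 occipital array fell between the medial ones. The ventral signal stayed well above the floor.

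Tbr1 (102700_at), the deep-layer factor, ranged between 13630.5 (occipital replicate 2) and 24035.7 (dorsal replicate 1). The dorsal piece read 24035.7 and 21367.8, the ventral 20332.8 and 21076.4, the rostral 17408.4 and 18548.6, the hemisphere 19236.5 and 16908.3 and the medial 15210.7 and 14106.9. The occipital arrays, at 22657.7 and 13630.5, spanned nearly this whole range. Ventral signal was thus high, and medial signal low, the reverse of Neurog2 and Eomes.

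Fezf2 (92229_at) read 17301.0 and 20369.0 in the medial, 13906.7 and 14970.4 in the dorsal, 15573.5 and 11076.5 in the rostral and 10239.1 and 20276.5 in the occipital piece. The hemisphere gave 8327.4 and 16545.7 and the ventral piece 2262.3 and 3292.2. The ventral arrays were below all others, and the remaining groups overlapped through the wide occipital and hemisphere pairs.

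**Figure D1:**
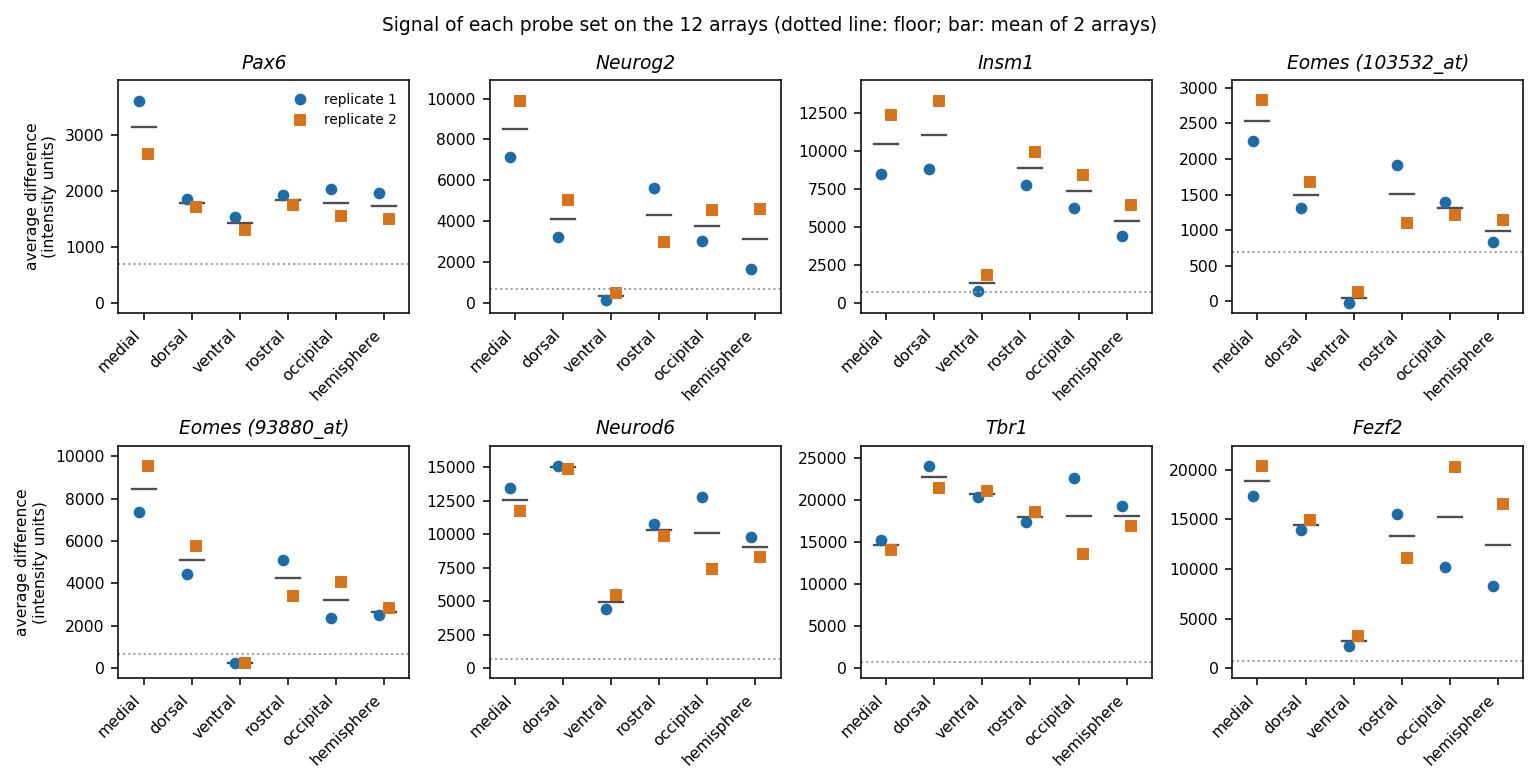
Average difference (intensity units, vertical axes of unequal scale) of the 8 probe sets in the 6 groups; points are the 2 arrays, bars their mean and the dotted line the floor of 695.2. Ventral points are the lowest for Neurog2, Insm1, Eomes, Neurod6 and Fezf2, the medial ones are the highest for Pax6, Neurog2 and Eomes, and Tbr1 is at 20332.8 and 21076.4 in the ventral piece.

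Within each replicate number, the piece with the highest level was the same in replicate 1 and in replicate 2 for all 8 probe sets, as it was for 38.6% of the 5825 tested. It was medial for Pax6, Neurog2, both Eomes probe sets and Fezf2, and dorsal for Insm1, Neurod6 and Tbr1. Medial was highest in both replicates for 11% and dorsal for 6.4% of all tested probe sets. Ventral was lowest in both replicates for 7 of the 8, all but Tbr1, and for 19.3% of those tested.

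The ventral piece was set against the other 4 pieces. Levels fell there for Insm1 (log2 difference -2.94 ± 0.33 SE), Neurog2 (-2.78 ± 0.39), Fezf2 (-2.46 ± 0.32), Neurod6 (-1.26 ± 0.20) and Eomes (-2.80 ± 0.24 on 93880_at and -1.23 ± 0.23 on 103532_at). Neither Pax6 at the start (-0.54 ± 0.18, limma adjusted p = 0.103) nor Tbr1 (0.20 ± 0.18, adjusted p = 0.58) passed. In a limma fit of all 12 arrays with Benjamini-Hochberg adjustment, 6 of the 8 probe sets passed, all downward, against 9.82% of all tested probe sets in either direction and 5.56% downward. Both ventral arrays lay under all 8 arrays of the other pieces for 7 of the 8 probe sets, Pax6 included by a margin of 1539.3 against 1542.9, and so did 13.5% of all tested.

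Adjusted limma p-values were 0.000625 and 0.0115 for the Eomes probe sets, 0.00159 for Insm1, 0.00277 for Fezf2, 0.00354 for Neurog2 and 0.0066 for Neurod6. Where both ventral arrays were under the floor, as for Neurog2 and Eomes, the folds of 6.85 and of 6.97 and 2.34 are lower limits, that is, at least so many times lower. Insm1 was 7.66-fold, Fezf2 5.51-fold and Neurod6 2.39-fold lower. Of the 6 calls, 2 were left without ventral replicate 1 (Insm1 and 93880_at of Eomes) and 5 without ventral replicate 2, where 103532_at of Eomes did not pass. Insm1 and 93880_at of Eomes passed whichever single array was left out. In a tissue sample, fewer cells of a type and less RNA per cell cannot be told apart.

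**Figure D2:**
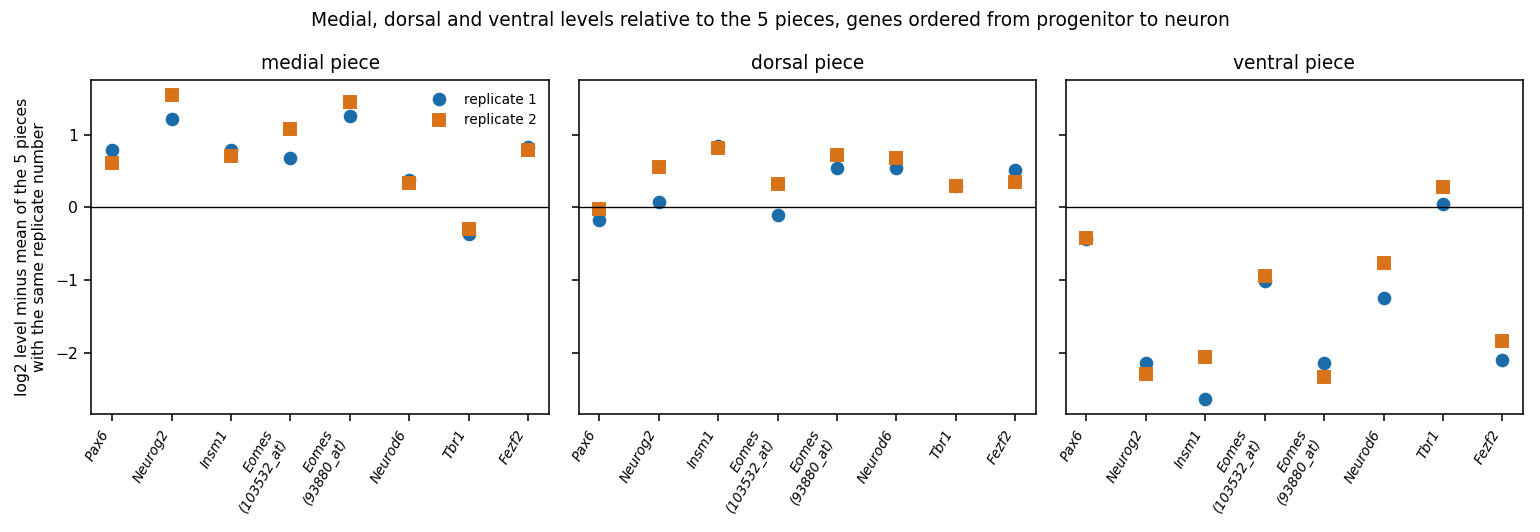
Log2 level of each probe set minus the mean of the 5 pieces of the same replicate number (vertical axis), for the medial, dorsal and ventral piece, with the genes ordered from progenitor to neuron. In the medial panel Neurog2 (1.22 and 1.54) is high and Tbr1 (-0.37 and -0.31) low; in the ventral panel Tbr1 (0.05 and 0.27) is the only gene not under 0.

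Medial against ventral gave the most calls among these genes. Neurog2 was at least 12.1-fold higher in the medial piece (log2 3.60 ± 0.49 SE), Eomes at least 12.1-fold on 93880_at (3.59 ± 0.30) and at least 3.63-fold on 103532_at (1.86 ± 0.29), and Insm1 8.54-fold (3.09 ± 0.41). Fezf2 was 6.88-fold (2.78 ± 0.40), Neurod6 2.57-fold (1.36 ± 0.25) and Pax6 2.19-fold (1.13 ± 0.23) higher. Tbr1 differed by -0.50 ± 0.23 and did not pass (limma adjusted p = 0.226), although its medial and ventral arrays did not overlap. So 7 of the 8 probe sets passed, all higher in the medial piece, against 11.3% of all tested in either direction and 6.08% in that direction. These 7 also had no overlap between medial and ventral arrays, as did 28.4% of all tested with the medial piece higher and 25.3%, Tbr1 among them, with it lower.

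The limma adjusted p-values were 0.000658 and 0.00482 for Eomes, 0.00303 for Insm1, 0.00322 for Neurog2, 0.0038 for Fezf2, 0.0112 for Neurod6 and 0.0149 for Pax6. The count was 5 to 7 with a single array left out: Pax6 did not pass without medial replicate 1 or either ventral replicate, and Neurod6 did not pass without medial replicate 1 or ventral replicate 1.

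Dorsal against ventral gave 5 of the 8 probe sets, all higher in the dorsal piece, where 5.29% of all tested passed in either direction and 2.49% in that direction. Both dorsal arrays lay above both ventral ones for 8 of 8, Tbr1 by 21367.8 against 21076.4, and for 28.7% of all tested. Insm1 (3.18 ± 0.41 SE) and Neurod6 (1.62 ± 0.25, limma adjusted p = 0.00971) had a larger estimate here than in the medial piece, and Neurog2 (2.54 ± 0.49, adjusted p = 0.0219), Fezf2 (2.40 ± 0.40, adjusted p = 0.013) and Eomes (2.87 ± 0.30) a smaller one. Pax6 (0.33 ± 0.23, adjusted p = 0.538), 103532_at of Eomes (1.09 ± 0.29, adjusted p = 0.0674) and Tbr1 (0.13 ± 0.23, adjusted p = 0.846) did not pass. Both comparisons share the ventral arrays. Without dorsal replicate 1 or 2 the count was 2 and 1, and without ventral replicate 1 or 2 it was 2 and 3, with 93880_at of Eomes passing in each.

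The medial and the dorsal piece were also compared directly. Here 0 of the 8 probe sets passed in limma, and 4 of all 5825 tested did, or 0.0687%. Medial levels minus dorsal levels were 1.06 ± 0.49 (SE) for Neurog2, 0.80 ± 0.23 for Pax6, 0.77 ± 0.29 and 0.73 ± 0.30 for the Eomes probe sets and 0.38 ± 0.40 for Fezf2. They were -0.08 ± 0.41 for Insm1, -0.26 ± 0.25 for Neurod6 and -0.63 ± 0.23 for Tbr1. The 2 arrays of each piece did not overlap for 7 of the 8, all but Insm1, where 17.1% of all tested lay clear with the medial piece higher and 18.1% with it lower. The signs were the same in replicate 1 and replicate 2 for each gene. At an unadjusted p under 0.05, 4 of the 8 and 333 of the 5825 differed.

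**Figure D3:**
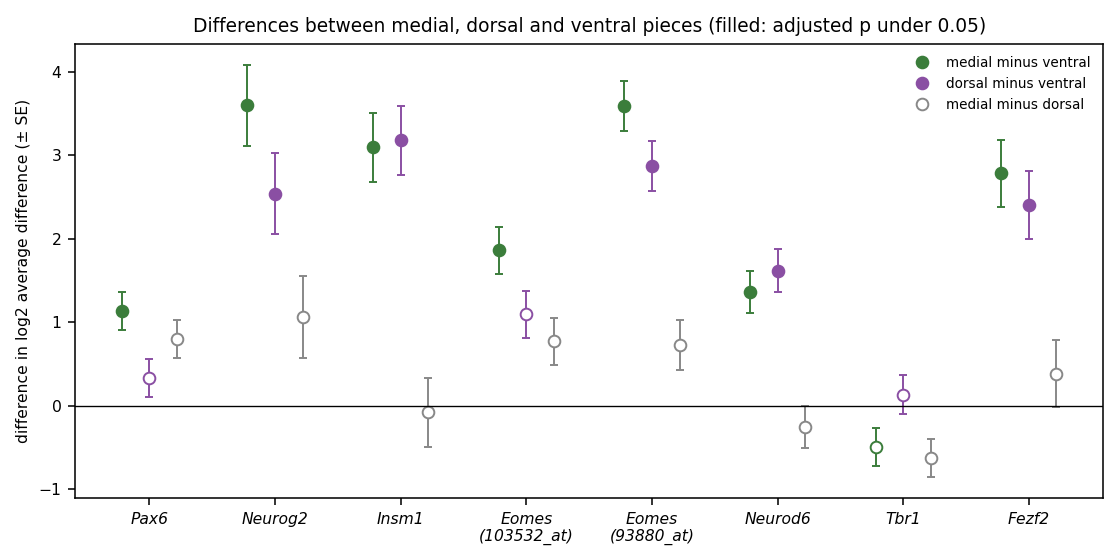
Differences in log2 average difference between the medial, dorsal and ventral piece for the 8 probe sets (points, with SE bars from the limma fit); filled points passed an adjusted p of 0.05. Medial minus ventral is filled for 7 of 8 and dorsal minus ventral for 5 of 8, while medial minus dorsal is open for all 8 and runs from 1.06 (Neurog2) to -0.63 (Tbr1).

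Set against the other 4 pieces together, the medial piece had 1 of 8 probe sets past the threshold, where 1.27% of all tested passed in either direction and 0.515% upward. This was 93880_at of Eomes (1.69 ± 0.24 SE, limma adjusted p = 0.0194), a call lost without medial replicate 1 or 2, dorsal replicate 2 or ventral replicate 1 or 2. Pax6 (0.87 ± 0.18, adjusted p = 0.0587), 103532_at of Eomes (1.09 ± 0.23, adjusted p = 0.0595) and Neurog2 (1.72 ± 0.39, adjusted p = 0.0747) did not pass. Both medial arrays lay above all 8 others for 4 of the 8, these 3 and 93880_at, and for 4.96% of all tested. Pax6 and Neurog2 passed when either hemisphere array was left out (adjusted p = 0.045 and 0.0324). With a term for the replicate number in the fit, Pax6, Neurog2, 103532_at of Eomes and Insm1 also passed for the medial piece. Insm1 then passed for the dorsal piece too. Without that term the dorsal piece had 0 of 8 past the threshold, where 0.275% of all tested passed by limma. Its differences ran from -0.13 (Pax6) to 1.03 (Insm1), with Neurod6 at 0.76 ± 0.20 (adjusted p = 0.273), the 1 probe set of the 8 whose dorsal arrays lay above all others, as they did for 2.82% of all tested. At an unadjusted p under 0.05, 3 of the 8 and 386 of the 5825 differed in the dorsal piece. Over the 5 pieces together limma's F-test passed 5 of 8, namely 93880_at of Eomes, Insm1, Fezf2, Neurog2 and Neurod6, against 3.26% of all tested. That count was 0 without either ventral array and 2 without either medial or dorsal array.

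Rostral and occipital levels could not be ordered. The difference had opposite signs in the 2 replicates for 7 of the 8 probe sets, as it did for 59.2% of all tested. Rostral minus occipital was 0.88 in replicate 1 and -0.61 in replicate 2 for Neurog2, 0.60 and -0.87 for Fezf2, and 1.12 and -0.26 for 93880_at of Eomes. Neurod6 (-0.25 and 0.42) and Tbr1 (-0.38 and 0.44) turned the other way. Insm1 alone kept its sign, at 0.31 and 0.25. None of the 8 and 0 of all 5825 probe sets (0%) passed in limma, and 0 of the 8 and 61 of the 5825 differed at an unadjusted p under 0.05.

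**Figure D4:**
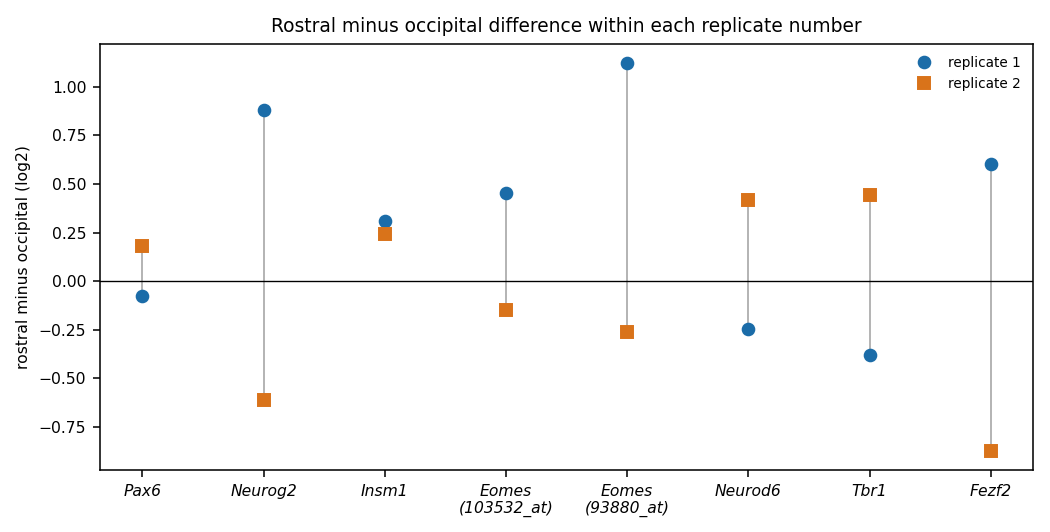
Rostral minus occipital difference in log2 average difference for each probe set, in replicate 1 (circles) and replicate 2 (squares). Insm1 (0.31 and 0.25) is the only gene with both points on the same side of 0, and Fezf2 runs from 0.60 to -0.87.

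The whole hemisphere lay within the span of the 5 pieces of its number for all 8 probe sets in both replicates, as did 61.8% of all tested in replicate 1 and 66.6% in replicate 2. It was below the mean of the 5 pieces for 8 of 8 in replicate 1 and for 7 of 8 in replicate 2, where 53.8% and 50.5% of all tested were. Eomes (93880_at) reached 62.8% and 60.3% of that mean and Insm1 68.3% and 70.3%. The replicates were less alike for Neurog2 (42.5% and 99%) and 103532_at of Eomes (55.2% and 76.2%). Tbr1 reached 96.5% and 95.3%, and Fezf2 went from 70.2% to 118%.

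Among the other genes of the pathway, the calls in the ventral piece were downward for progenitor and commitment genes. Of all tested probe sets, 5.56% fell there. Of 14 tested genes of neurogenic commitment and intermediate progenitors 6 fell there and 0 rose: the Notch modulator Mfng (-1.37), the growth arrest gene Gadd45g (-1.37), the somatostatin receptor Sstr2 (-1.67), Hes6 (-0.69), which promotes neuronal differentiation, the chemokine receptor Cxcr4 (-1.13) and the corepressor Cbfa2t2 (-0.63). The list's median log2 difference was -0.75, against -0.02 for all tested probe sets. In medial against ventral 7 of the 14 passed, all higher in the medial piece, where 6.08% of all tested passed in that direction. They were the same 6 and the bHLH factor Neurod1 (a mean of 11067.2 against 4044.1), with Sstr2 at 2.24 (a mean of 8225.9 against 1705.6). The summed level of this list was 39620 to 45453 in the ventral arrays and 59042 to 75769 in those of the other pieces.

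Of 10 tested apical progenitor genes 4 fell in the ventral piece and 0 rose, namely Sox3 (-1.77), the apical membrane protein prominin 1 (Prom1, -1.45), the Hippo pathway factor Tead2 (-1.35) and the bHLH factor Tcf4 (-1.10). The median was -0.64, and 5.56% of all tested probe sets fell. Sox2 (-0.10), which marks neural progenitors in pallium and subpallium, and Notch1 (-0.63) and its target Hes1 (-0.65) did not pass. Neither did Id4 (0.83) and Fabp7 (0.13), whose estimates were upward. Medial against ventral gave 5 of 10, these 4 and nestin (Nes, 0.83), where 6.08% of all tested passed in that direction.

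Of 18 tested genes of postmitotic pallial neurons 4 fell and 1 rose in the ventral piece, with a median of -0.75. Of all tested probe sets 5.56% fell and 4.26% rose. Those that fell were the nuclear factor I genes Nfix (-2.75) and Nfib (-2.55), Id2 (-0.83) and Rnd2 (-0.91), and neurogranin (Nrgn, 2.17) rose. Neurod2 (-0.92), a relative of Neurod6, and the migration gene Dcx (0.15) did not pass.

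Genes of other lists also differed in the ventral piece, some upward and some downward. Of 16 tested subpallial and GABAergic genes 9 rose in the ventral piece and 0 fell, where 4.26% of all tested probe sets rose. Among the 9 were somatostatin (Sst, 2.83), enkephalin (Penk, 3.36), the homeobox factor Pbx3 (2.71), the GABA-synthesising enzyme Gad1 (1.87) and the vesicular GABA transporter Slc32a1 (1.97). Neuropeptide Y (Npy, 0.84) was another of them, but it was higher still in the dorsal piece. Its mean was 26748.7 there and 15765.3 in the ventral piece (dorsal against ventral 0.77, limma adjusted p = 0.0245). The Dlx genes did not pass there: Dlx1 (0.325), Dlx2 (0.06), Dlx5 (1.08) and Dlx6 (0.63). Mean Dlx1 signal was 8918.5 in the ventral, 11992.5 in the rostral, 12271.2 in the occipital, 4707.5 in the dorsal and 4168.1 in the medial piece. The summed level of the 16 genes was 160570 to 180615 in the ventral arrays, 25629 to 29923 in the medial and 54306 to 107220 in the remaining pieces. Npy made up a large part of the dorsal sum, which was 54306 to 56270. Of 23 tested cell cycle genes 14 fell in the ventral piece and 0 rose, among them the kinase Cdk1 (-1.91) and the ribonucleotide reductase subunit Rrm1 (-1.84). The list's median was -1.17, and 5.56% of all tested probe sets fell. Summed levels were 127524 to 131348 there and 154030 to 201578 in the other pieces. Much of each sum was Stmn1, which did not differ (means of 86356.6 in the ventral and 86470.3 in the other pieces). The part of either list in the members' differences was not tested. Lists of blood and endothelium, meninges and pericytes, microglia and the oligodendrocyte lineage had 0 of 3, 0 of 2, 0 of 4 and 0 of 2 tested genes past the threshold in limma in the ventral piece, where 1 of these 11 differed at an unadjusted p under 0.05. The summed level of the 2 oligodendrocyte lineage genes was 4006 to 4619 in the ventral arrays and 1628 to 3190 in the other pieces. Of 3 Cajal-Retzius cell genes Ebf2 rose (1.28), and of 4 genes of the thalamus and other brain parts Tcf7l2 rose (1.35). Of 3 choroid plexus and hem genes 0 passed in the ventral piece, and transthyretin (Ttr) was higher in the medial piece than in the ventral one (2.17).

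Likeness of pattern was taken as Pearson's r of log2 levels over the 12 arrays, which include the 2 ventral arrays that most of these genes separate. It is a description. The gene most like Neurog2 among 4558 tested genes was Eomes (93880_at, r = 0.959, and 0.855 over the 10 arrays that are not ventral). For Fezf2 it was Nfix (0.992 and 0.949), followed by Itsn1 (0.989 and 0.988), and for Insm1 Nfix as well (0.966 and 0.755). Neurod6 was most like Prkd3 (0.946 and 0.857), 103532_at of Eomes most like Adh5 (0.934 and 0.882), and Pax6 most like Aifm1 (0.910 and 0.923). Tbr1 was most like Eif1b (0.932 and 0.961). The Eomes probe sets correlated with each other at 0.904 and 0.880. Between members, r was 0.742 for Neurod6 and Fezf2 (-0.12 without the ventral arrays), 0.737 for Neurod6 and Neurog2 (0.157) and 0.075 for Neurod6 and Tbr1 (0.583). The values without the ventral arrays were added after the data were seen.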

How the data were processed

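RNA of each sample was hybridised to 1 Affymetrix mouse U74 array, which was scanned 2 times per the labels. The labels give total RNA as the molecule and poly(A)+ RNA in the protocol. The authors deposited average difference values, a linear intensity per probe set; the software version is not given in the sources used here. The deposited 2% trimmed means were 2501.6 to 2501.9 on every array, so no further scaling was applied.

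Of 12488 probe sets 66 controls were left out. Symbols came from the platform annotation. The floored log2 values were fitted with limma 3.58.1 in R 4.3.3 as 6 group means over all 12 arrays. Variances were empirical Bayes (6 residual and 2.86 prior degrees of freedom), with Benjamini-Hochberg adjustment over 5825 probe sets at 0.05, in 8 comparisons. The fit was also run on simulated data with independent noise. These held neither a replicate effect nor a floor, so they cannot show how the fit handles those. Fold changes refer to the floored scale and understate those of dim probe sets. Members were all probe sets of the 7 symbols. List genes were named by smallest p, at most 6 per list and comparison, with defining members that did not pass. For commitment genes in medial against ventral all 7 that passed were named. Likeness named the genes with the highest r. The members and lists were chosen with earlier results of these data known. Other floors, filters, scales, normalization, variance models and sample sets, and each array left out, were tried.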

Additional observations from a re-analysis of the deposited data

How the results depend on the processing

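Alternatives changed the floor, the filter, the scale, the normalization, the variance model or the arrays fitted. Of the 8 probe sets, the number past the threshold in limma for any difference over the 5 pieces was 1 without a filter, against 5. For the medial piece against the others it was 2 with a lower floor, 2 on an arcsinh scale, 0 without a filter, 3 in a fit of only the arrays compared and 4 without the rostral and occipital arrays, against 1. For dorsal against ventral it was 3 without a filter, against 5. The causes were not tested. Without a filter more probe sets entered both the fit and the adjustment.

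The replicate numbers were not taken as pairs: replicate differences correlated between groups at -0.06 to 0.562, over 0.1 in 14 of 15 pairs of groups but not for rostral and occipital. With a replicate block, 5 probe sets passed for the medial piece against the others, adding Pax6 (limma adjusted p = 0.0125), Insm1 (0.0244), Neurog2 (0.0415) and 103532_at of Eomes (0.0415), and 1 for the dorsal piece, Insm1 (0.0398). The block also added Pax6 for the ventral piece (0.0148), and Pax6 (0.0174) and 103532_at of Eomes (0.0438) for any difference over the 5 pieces.

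With single arrays left out, the counts ranged from 0 to 5 for any difference, 2 to 6 for the ventral, 0 to 3 for the medial and 0 to 0 for the dorsal piece against the others, 5 to 7 for medial and 1 to 6 for dorsal against ventral. The sign turned, without a call, for Eomes (103532_at) in the dorsal piece (-0.05 to 0.31), Insm1 in medial against dorsal (-0.38 to 0.21) and, in rostral against occipital, Pax6 (-0.15 to 0.25), Neurog2 (-0.33 to 0.59), Eomes (103532_at, -0.25 to 0.56), Neurod6 (-0.31 to 0.48), Tbr1 (-0.33 to 0.4) and Fezf2 (-0.63 to 0.36). Signal over background limits Neurog2 and Eomes, whose ventral arrays lie under the floor.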
